A study of Mus musculus with 24 samples.

Results

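The genes described here make, sense, store and export cholesterol. There were 29 of them, named by symbol and all 29 present among the 21063 gene rows of the count tables, with 16 enzymes of synthesis, 4 sterol sensing genes, 3 genes of transport and storage, and 6 genes of the liver X receptors (LXR) and of efflux. They were followed in 8 groups of 3 libraries of poly-A RNA, 24 in all, made from cells sorted out of epididymal fat. The mice were male C57BL/6J on a high-fat diet. Macrophages called M1, macrophages called M2 and adipose progenitors (AP) came from mice in the cold (Cold), held at 18 °C for 7 days and at 4 °C for a further 7 and harvested on day 14. M1 and M2 macrophages, without progenitors, also came from thermoneutral mice given 10 mg/kg of the FGF21-mimetic antibody bFKB1 into the peritoneum and harvested 8 days later. All 3 populations came from mice kept at thermoneutrality, 29 to 30 °C (Warm), against which both treatments are set. Mice weighed 38 to 42 g at 18 to 20 weeks of age, the diet of Warm and Cold mice began at 6 weeks, and each Warm or Cold library pooled cells of 5 mice. Pooling is not stated for bFKB1, the labels list no vehicle group, and the bFKB1 libraries stand in a table of their own, so treatment and batch cannot be told apart wherever bFKB1 is set against Warm. The labels give M1 and M2 as names of sorted populations, and the gates that define them are not used here.

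Cells keep their cholesterol within bounds through a pair of opposed programmes. When membranes of the endoplasmic reticulum run short of sterol, Scap escorts the SREBP factors, products of Srebf1 and Srebf2, to the Golgi for cleavage, and the released factors turn on the enzymes of synthesis; Insig1 holds Scap back when sterol is plentiful and is itself a target of SREBP. When oxysterols build up, the nuclear receptors LXRα (Nr1h3) and LXRβ (Nr1h2) turn on export genes such as Abca1, Abcg1 and Apoe, and also Mylip, a ubiquitin ligase that marks lipoprotein receptors for degradation. Fat tissue macrophages of obese animals take up lipid released by adipocytes, and both programmes are well described in macrophages loaded with lipid.

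Promoters of these genes are shown first, since elements that SREBP and its partner NF-Y are known to bind lie there, and some of those bound by LXR. RefSeq (GRCm38.p6) gave 33 promoters for 24 of the 29 members, each 300 bases long, with 250 bases before the start of transcription and 50 after it. It gave none for Abcg1, Fdft1, Fdps, Sqle and Stard4, which were not searched. Both strands were searched for the sterol regulatory element TCACNCCAC, the NF-Y motif CCAAT, the E-box CACGTG, the Sp1 motif GGGCGG and the LXR direct repeat, first in a strict form. CCAAT lay in 12 of 13 synthesis genes (92.3%), against 41.1% of all 27025 genes with a promoter and 1 of 5 LXR and efflux genes, Lpcat3. GGGCGG lay in 12 of 13 synthesis genes too, against 38.2% of all genes. The E-box lay in 5 of the 24 members, Abca1, Dhcr7, Hsd17b7, Insig1 and Scap, against 8.09% of all genes. The sterol regulatory element in these letters was found for Hmgcs1 alone among the 24 members searched, against 1.44% of all genes. Within these 300 bases no member held the LXR repeat in the strict form, which 0.0999% of all genes hold. Elements further from the start were not searched, so this does not show that a member lacks one. A looser spelling without the leading A of each repeat, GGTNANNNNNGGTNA, was tried after that search had returned none, and it lay in Abca1 and in Srebf1, against 0.818% of all genes. The 5 promoters below stand for the synthesis enzymes (Hmgcs1, Cyp51), the sensors (Insig1, Srebf1) and the exporters (Abca1). Each reads 5′ to 3′ on the strand of its gene, and capitals mark the sterol regulatory element, CCAAT or its reverse ATTGG, the E-box, and the looser LXR repeat on the reverse strand. A match is a description of letters and not a site shown to be bound.
Hmgcs1 promoter, chr13:119690101-119690400, plus strand, with 4 NF-Y motifs and the sterol regulatory element: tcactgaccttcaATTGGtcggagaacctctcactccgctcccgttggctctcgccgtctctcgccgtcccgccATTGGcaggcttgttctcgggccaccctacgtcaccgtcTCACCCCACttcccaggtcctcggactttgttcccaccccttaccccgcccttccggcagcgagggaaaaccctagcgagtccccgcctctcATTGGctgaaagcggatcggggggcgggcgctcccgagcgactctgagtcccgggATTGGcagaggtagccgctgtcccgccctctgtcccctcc
Cyp51 promoter, chr5:4104648-4104947, minus strand, with 1 NF-Y motif: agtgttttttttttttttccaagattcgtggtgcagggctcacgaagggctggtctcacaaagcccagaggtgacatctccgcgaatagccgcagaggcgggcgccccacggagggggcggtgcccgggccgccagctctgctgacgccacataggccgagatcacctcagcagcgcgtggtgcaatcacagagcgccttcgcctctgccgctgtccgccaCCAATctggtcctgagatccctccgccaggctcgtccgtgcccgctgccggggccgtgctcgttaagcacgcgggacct
Insig1 promoter, chr5:28071162-28071461, plus strand, with 1 NF-Y motif and 1 E-box: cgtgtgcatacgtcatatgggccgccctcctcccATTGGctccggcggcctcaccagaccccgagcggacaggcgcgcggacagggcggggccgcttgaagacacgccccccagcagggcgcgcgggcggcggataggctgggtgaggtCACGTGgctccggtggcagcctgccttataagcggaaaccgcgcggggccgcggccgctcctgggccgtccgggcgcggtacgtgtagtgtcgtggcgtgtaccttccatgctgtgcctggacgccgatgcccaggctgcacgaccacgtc
Srebf1 promoter, chr11:60210422-60210721, minus strand, 1 of 3 starts of this gene, with the LXR repeat and 1 NF-Y motif: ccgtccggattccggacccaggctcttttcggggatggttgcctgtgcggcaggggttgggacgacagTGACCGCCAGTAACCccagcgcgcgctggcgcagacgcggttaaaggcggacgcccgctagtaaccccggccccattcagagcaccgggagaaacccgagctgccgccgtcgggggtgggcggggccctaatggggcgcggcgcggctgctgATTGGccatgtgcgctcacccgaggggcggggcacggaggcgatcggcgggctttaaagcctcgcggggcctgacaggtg
Abca1 promoter, chr4:53159846-53160145, minus strand, with 1 E-box and the LXR repeat: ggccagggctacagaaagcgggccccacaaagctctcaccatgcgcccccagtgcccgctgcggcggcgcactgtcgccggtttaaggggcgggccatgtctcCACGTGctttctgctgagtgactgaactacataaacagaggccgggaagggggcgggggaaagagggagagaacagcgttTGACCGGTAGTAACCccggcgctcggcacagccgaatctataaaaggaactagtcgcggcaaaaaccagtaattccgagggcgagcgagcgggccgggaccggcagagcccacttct

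The libraries held 14.4 to 34.6 M (mega) counts assigned to genes, and all 29 members passed the filter on low counts in every fit. The labelled cell types were checked by summed marker levels. The 10 macrophage markers summed to 11403 to 28036 CPM (a gene's share of all counts in its library, scaled by the same factor everywhere) in macrophage libraries and to 74.2 to 523 CPM in progenitor libraries, and the 14 progenitor markers summed to 131976 to 167703 CPM in progenitor libraries. In Cold M1 the progenitor markers summed to 49337, 24438 and 17463 CPM, against 3436, 12528 and 3454 CPM in Warm M1, and none of the 14 was at 0. Set against the progenitor libraries, this corresponds to 35.8%, 17.8% and 12.7% of each Cold M1 library, against 2.09%, 7.62% and 2.10% of each Warm M1 library. Every Cold M1 library lay above every Warm M1 library. The share was 2.29% to 6.70% in bFKB1 M1 and 1.18% to 3.07% in all M2 libraries. Dendritic cell markers summed to 127.6 to 170.1 CPM in Cold M1 and 49.5 to 53.2 CPM in bFKB1 M1, against 84.6 to 98.0 CPM in Warm M1. Mast cell markers summed to 20.9 to 38.2 CPM in Cold M1 and 11.5 to 19.5 CPM in Cold M2, against 3.39 to 10.4 CPM in Warm M1 and 1.76 to 2.18 CPM in Warm M2. Endothelial markers summed to 78.2 to 108.4 CPM in Cold M2 and 91.4 to 111.2 CPM in bFKB1 M2, against 53.5 to 74.0 CPM in Warm M2. No marker of any list was at 0 in both groups of a treatment comparison. In these bulk samples fewer cells of a type and less RNA per cell cannot be told apart.

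Per length of exon, Apoe stood far above the other members. In Warm M1, Apoe, the apolipoprotein that carries cholesterol out of macrophages, averaged 1787 ± 334 CPM per kb of exon, Abca1 25.5 ± 0.404 and Abcg1 30.3 ± 1.33 CPM per kb (SD, n = 3). Among the synthesis enzymes Ebp, a sterol isomerase, was the most abundant per length in Warm M1 at 26.4 ± 1.16 CPM per kb, while Idi1, which isomerises isopentenyl diphosphate, was the least abundant at 0.415 ± 0.0960 CPM per kb. Apoe ranked the highest and Idi1 the lowest of the 29 per length in Warm M1, Warm M2 and Warm AP alike. Some counts are uncertain because genes share sequence. For 2 members most of the longest coding transcript matched another gene at 95% identity or more, Fdps with 81.6% of its bases (Gm43738) and Acat2 with 65.6% (Acat3). Fdft1 shares 774 exon bases with Ctsb and Cyp51 166 with Akap9 on the opposite strand, and Tm7sf2 shares 532 with Vps51 on its own strand. The library kit named for Warm and Cold does not mark strand, so reads from such overlaps cannot be assigned.

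**Figure D1:**
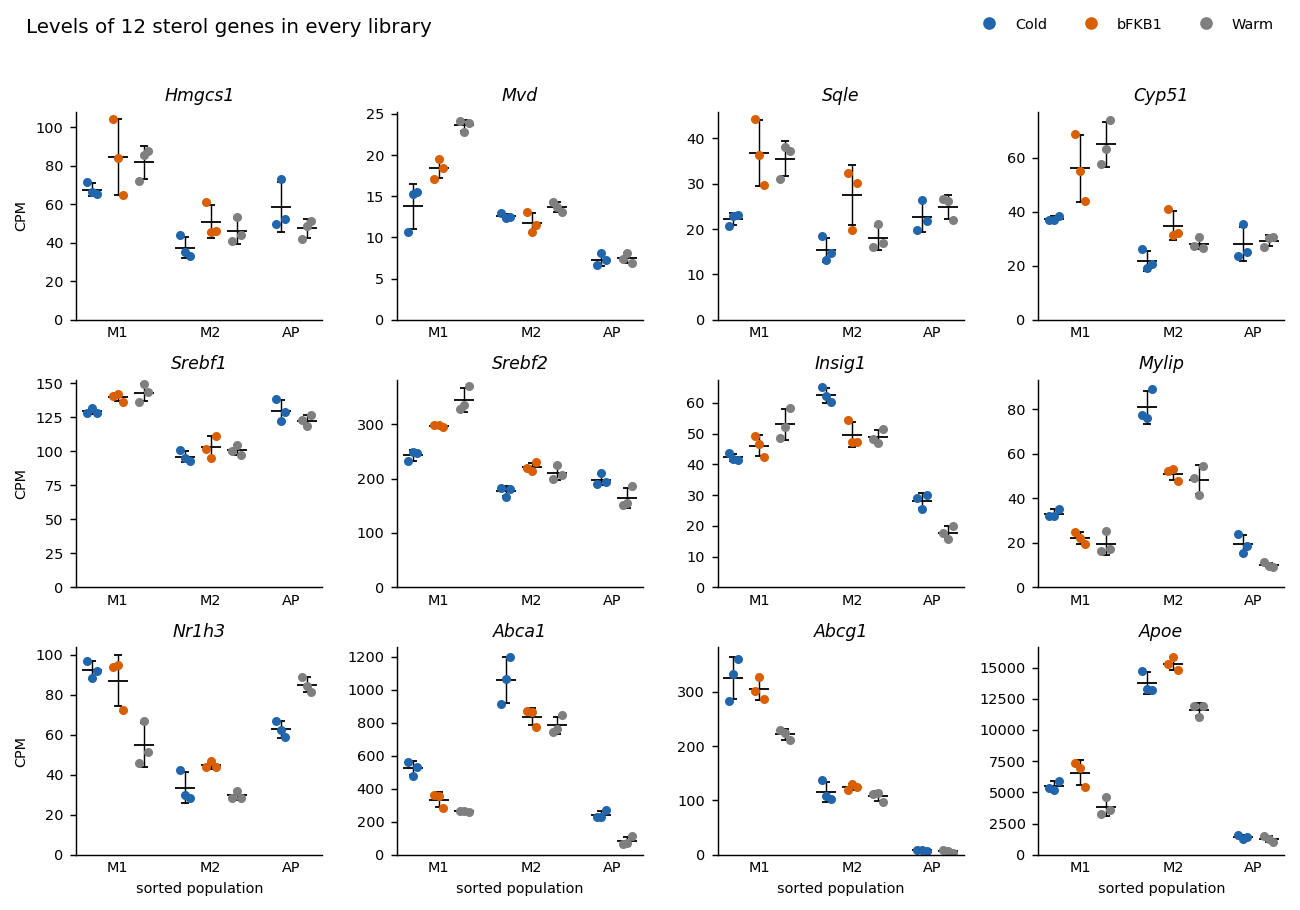
Levels in CPM (y axis) of 12 members in each of the 24 libraries, grouped by sorted population (x axis). Points are libraries coloured by Cold, bFKB1 and Warm, and bars are the mean and SD of 3; Abca1 stands at 479 to 565 CPM in Cold M1 against 259.8 to 267 CPM in Warm M1, while Cyp51 stands at 36.9 to 38.5 CPM in Cold M1 against 57.6 to 74.1 CPM in Warm M1.

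Cold in M1 macrophages went with less RNA of synthesis enzymes and more RNA of export genes. Of the 29 members 7 rose and 13 fell (edgeR's quasi-likelihood test, Benjamini-Hochberg adjusted p under 0.05 over 12981 genes), while 22.4% of all genes tested rose and 21.5% fell, 43.9% in all. Among the 16 synthesis genes 8 fell and none rose, with a median log2 fold change of -0.378, against -0.027 over all genes tested. LXR and efflux genes had a median of 0.528, and 4 of the 6 rose while 1 fell. Of the 4 sensors 1 rose and 3 fell, and of the 3 genes of transport and storage 2 rose and 1 fell. All values given as 3 numbers are the libraries of replicate 1, 2 and 3 in that order, each ± beside a log2 fold change is its standard error, and each adjusted p is from that edgeR test. Where libraries are said not to overlap, this only describes the values printed, mostly of members chosen for a small p. The share of all genes without overlap is not given here, so such statements add nothing to the tests.

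The synthesis enzymes that fell in Cold M1 lay between Pmvk and Ebp along the pathway, but Fdps, Lss, Nsdhl and Hsd17b7 in that stretch were not called. Acat2, Hmgcs1, Mvk and Dhcr7 were not called either. Mvd, which makes isopentenyl diphosphate, had 10.7, 15.2 and 15.5 CPM in Cold M1, against 24.2, 22.9 and 23.9 CPM in Warm M1 (log2 fold change -0.80 ± 0.11, adjusted p = 0.000613). Sqle, the squalene epoxidase and a controlled step of the pathway, had 20.7, 22.9 and 23.1 CPM in Cold M1, against 31.1, 38.2 and 37.2 CPM in Warm M1 (log2 fold change -0.69 ± 0.13, adjusted p = 0.00204). In both genes the highest Cold library lay below the lowest Warm library. Cyp51, the lanosterol demethylase (chr5:4081145-4104746, GRCm38), had 36.95, 36.9 and 38.5 CPM in Cold M1, against 57.6, 63.1 and 74.1 CPM in Warm M1 (log2 fold change -0.81 ± 0.12, adjusted p = 0.000813). Tm7sf2, a sterol reductase after it, had 4.64, 3.73 and 4.91 CPM in Cold M1, against 6.86, 7.02 and 5.91 CPM in Warm M1 (log2 fold change -0.59 ± 0.14, adjusted p = 0.00666). Again no Cold library reached the lowest Warm one. The other 4 enzymes that fell were Idi1 (-0.81), the squalene synthase Fdft1 (-0.53), the kinase Pmvk (-0.47) and Ebp (-0.32). The call of Idi1 was lost in 9 of 13 alternative settings, and its level was below 2 CPM in every library. The 8 enzymes not called ran from -0.44 (Fdps) to 0.13 (Hsd17b7), and the entry enzyme Hmgcs1, whose promoter holds the sterol regulatory element, had 71.4, 66.3 and 65.3 CPM in Cold M1, against 72.01, 85.8 and 87.8 CPM in Warm M1 (log2 fold change -0.29 ± 0.12, adjusted p = 0.0761), with the highest Cold and the lowest Warm library close together.

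Of the sensors, the gene for the SREBP that drives sterol enzymes moved most. Srebf2 had 232, 249 and 248 CPM in Cold M1, against 328, 335 and 370.3 CPM in Warm M1 (log2 fold change -0.52 ± 0.075, adjusted p = 0.000668). Srebf1, which drives fatty acid synthesis in the main, had 128, 132 and 128 CPM in Cold M1, against 136, 149.5 and 144 CPM in Warm M1 (log2 fold change -0.16 ± 0.049, adjusted p = 0.0213). This fall was small and its call was lost in 5 of 13 alternative settings. Insig1 had 43.6, 41.9 and 41.4 CPM in Cold M1, against 48.5, 52.2 and 58.2 CPM in Warm M1 (log2 fold change -0.34 ± 0.082, adjusted p = 0.00713). Scap had 104, 104 and 97.4 CPM in Cold M1, against 84.8, 88.4 and 85.3 CPM in Warm M1 (log2 fold change 0.22 ± 0.050, adjusted p = 0.00549), the 1 sensor that rose. For all 4 the Cold and Warm libraries did not overlap.

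Genes that move and store cholesterol parted in Cold M1. Stard4, a carrier of cholesterol within the cell and a known SREBP target, had 5.63, 6.63 and 7.26 CPM in Cold M1, against 10.6, 10.4 and 13.4 CPM in Warm M1 (log2 fold change -0.84 ± 0.13, adjusted p = 0.00108). Soat1, which esterifies cholesterol for storage in droplets, had 224, 251 and 266 CPM in Cold M1, against 174, 196 and 182 CPM in Warm M1 (log2 fold change 0.41 ± 0.061, adjusted p = 0.000792). Mylip had 32.1, 31.9 and 35.4 CPM in Cold M1, against 16.3, 25.4 and 17.3 CPM in Warm M1 (log2 fold change 0.74 ± 0.15, adjusted p = 0.00279). The SREBP target was lower and the storage enzyme and LXR target higher, with no overlap of libraries in any of the 3.

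The export genes rose together in Cold M1. Abca1, the transporter that loads cholesterol onto apolipoprotein A-I (chr4:53030787-53159895, GRCm38), had 565, 479 and 535 CPM in Cold M1, against 267, 267 and 259.8 CPM in Warm M1 (log2 fold change 0.98 ± 0.11, adjusted p = 0.000256). Abcg1, the transporter that passes cholesterol to HDL, had 283, 331 and 359 CPM in Cold M1, against 229, 224 and 210.4 CPM in Warm M1 (log2 fold change 0.54 ± 0.11, adjusted p = 0.00295). Apoe had 5384, 5221 and 5954 CPM in Cold M1, against 3263, 4625 and 3573 CPM in Warm M1 (log2 fold change 0.52 ± 0.11, adjusted p = 0.00414). The lowest Cold library of each lay above the highest Warm library. Of the receptors, Nr1h3 had 97.1, 88.6 and 91.8 CPM in Cold M1, against 46.2, 67.0 and 51.6 CPM in Warm M1 (log2 fold change 0.74 ± 0.15, adjusted p = 0.00277), while Nr1h2 had 103, 109 and 114 CPM in Cold M1, against 122, 126 and 114 CPM in Warm M1 (log2 fold change -0.17 ± 0.043, adjusted p = 0.0102). The receptor genes moved in opposite directions, and the Nr1h2 libraries came within 1 CPM of each other. Lpcat3, an LXR target that remodels membrane phospholipids, was not called (0.13 ± 0.063, adjusted p = 0.122). Srebf1, the other member with the LXR repeat in its promoter, fell while Abca1 rose; its counts do not separate its 3 starts.

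Progenitor RNA moved with this comparison, and the member changes were computed again with the counts expected from progenitors taken off each macrophage library. The expected progenitor part was 5.77% to 15.4% of the Abca1 counts and 0.288% to 1.03% of the Abcg1 counts in Cold M1, 9.26% to 27.2% of the Cyp51 counts, and 25.1% to 50.2% of the Hsd17b7 counts. With them taken off, 18 of the 20 calls stood. The rise of Abca1 came to 1.18, of Nr1h3 to 0.93, of Abcg1 to 0.86, of Apoe to 0.78 and of Soat1 to 0.69 on the log2 scale. Cyp51 came to -0.72, Sqle to -0.72, Mvd to -0.66, Srebf2 to -0.46, Stard4 to -0.72 and Pmvk to -0.31. Idi1 (-0.74, adjusted p = 0.074) and Insig1 (-0.22, adjusted p = 0.0716) were no longer called. Macrophage markers summed to 11403 to 15651 CPM in Cold M1, against 16110 to 17041 CPM in Warm M1. Of the 10 macrophage markers, 3 had every Cold M1 library below every Warm M1 library and 1 the reverse. The part of dendritic and mast cell RNA in these changes was not tested.

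**Figure D2:**
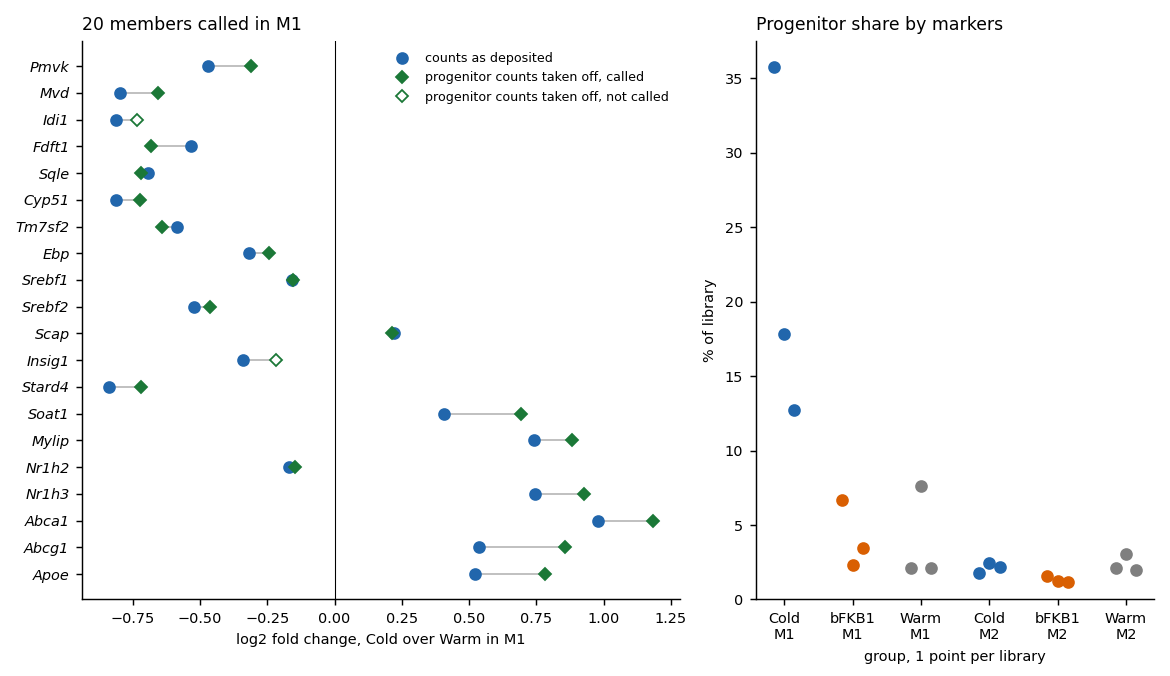
Left, log2 fold change Cold over Warm in M1 (x axis) of the 20 called members as deposited (circles) and with progenitor counts taken off (diamonds, open where no longer called); Abca1 goes to 1.18 and Idi1 and Insig1 are the open ones. Right, the progenitor share of each macrophage library in percent by group, highest in the 3 Cold M1 libraries at 12.7% to 35.8%.

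Other genes of the pathway gave a mixed picture in Cold M1, where 22.4% of all genes tested rose and 21.5% fell. All 3 further genes of SREBP control rose, among them Mbtps2, a protease that frees SREBP, (0.31) and Insig2 (0.36), a second retainer of Scap. Insig2 had 19.7, 16.4 and 17.2 CPM in Cold M1 and 28.7, 31.5 and 30.4 CPM in Cold AP, against 14.8, 13.3 and 12.98 CPM in Warm M1. Mbtps1, another such protease, had 172, 144 and 136 CPM in Cold M1 and 304, 261 and 291 CPM in Cold AP, against 127, 132 and 121 CPM in Warm M1. Both were higher in progenitors than in M1 and highest in the Cold M1 library with the largest progenitor share, whereas Mbtps2 was lower in progenitors, and the progenitor part in these 3 was not tested. Of 12 fatty acid targets of SREBP 4 rose and 5 fell. Scd1, the desaturase that makes oleate, rose by the most of the 12, with 44.7, 26.8 and 26.9 CPM in Cold M1, against 4.29, 6.63 and 4.36 CPM in Warm M1 (log2 fold change 2.68 ± 0.26, adjusted p = 0.000146), and the highest value is in the library with the highest progenitor share; Cold AP held 54.2, 40.1 and 51.5 CPM. Elovl5, an elongase, fell (-0.53), as did Aacs (-0.55). Of 10 further LXR targets and partners 1 rose and 1 fell, the phosphodiesterase Smpdl3a at 0.53 and the transporter Abca7 at -0.68. Of 7 genes of lysosomal and oxysterol handling 2 rose, the lysosomal acid lipase Lipa (0.62) and the cholesteryl ester hydrolase Nceh1 (0.54).

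In M2 macrophages fewer members were called in the cold. Of the 29 members 3 rose and 1 fell, while 4.41% of all genes tested rose and 5.69% fell, 10.1% in all. Srebf2 fell as in M1, with 183, 167 and 181 CPM in Cold M2, against 199.9, 225 and 206 CPM in Warm M2 (log2 fold change -0.32 ± 0.075, adjusted p = 0.0248). Mylip had 77.2, 75.97 and 89.2 CPM in Cold M2, against 49.2, 41.5 and 54.4 CPM in Warm M2 (log2 fold change 0.67 ± 0.14, adjusted p = 0.0147). Lss, which closes the sterol ring system, had 11.9, 11.8 and 11.03 CPM in Cold M2, against 8.95, 8.08 and 8.61 CPM in Warm M2 (log2 fold change 0.37 ± 0.082, adjusted p = 0.0182). In these 3 genes the groups did not overlap. Insig1 had 65.01, 62.2 and 60.1 CPM in Cold M2, against 48.3, 47.1 and 51.4 CPM in Warm M2 (log2 fold change 0.29 ± 0.082, adjusted p = 0.0499), a rise where M1 showed a fall. Of the 16 synthesis genes 1 rose and none fell (median log2 fold change -0.017, against 0.003 over all genes), and of the 6 LXR and efflux genes none was called (median 0.135). Abca1 had 913, 1067 and 1195 CPM in Cold M2, against 746, 761 and 844 CPM in Warm M2 (log2 fold change 0.37 ± 0.11, adjusted p = 0.0576), with no overlap but short of the threshold, and DESeq2 called 6 members in place of 4. No M2 call held in every setting. Without Cold M2 replicate 2 or without Warm M2 replicate 2 no member was called, without Cold M2 replicate 3 there was 1 and without Warm M2 replicate 1 there were 2, in fits that called 531 to 820 genes in place of 1312. Markers of T and NK cells summed to 17.3 to 25.3 CPM in Cold M2, against 7.77 to 11.3 CPM in Warm M2, and mast and endothelial lists were higher too (ranges above). Mature adipocyte markers summed to 261 to 328 CPM in Cold M2, against 184 to 219.7 CPM in Warm M2, dendritic cell markers to 34.6 to 45.3 CPM in Cold M2, against 25.6 to 31.4 CPM in Warm M2, and macrophage markers to 26271 to 27083 CPM in Cold M2, against 24527 to 26074 CPM in Warm M2. Single markers did not all follow these sums. Every Cold M2 library lay above every Warm M2 library in 5 of 7 adipocyte, 2 of 7 dendritic, 5 of 10 macrophage and 1 of 7 T and NK markers. The reverse held in 1 adipocyte, 3 dendritic, 1 macrophage and 0 T and NK markers. The part of these lists in the result was not tested.

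Around the members in M2, the fatty acid list, the longest of these lists, held the most calls. Among all genes tested 4.41% rose and 5.69% fell. Of 12 fatty acid targets 3 rose and 4 fell, with Fasn, the fatty acid synthase, at 35.3, 34.2 and 33.4 CPM in Cold M2, against 53.4, 61.98 and 52.8 CPM in Warm M2 (log2 fold change -0.77 ± 0.14, adjusted p = 0.00652), and Scd1 (1.15) and Mid1ip1, an activator of acetyl-CoA carboxylase (0.42), higher. None of 3 further genes of SREBP control was called, Smpdl3a rose alone among 10 further LXR targets and partners (0.40), and Lipa rose (0.52) while Soat2 fell (-1.06) among 7 genes of lysosomal and oxysterol handling.

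Whether cold acted differently on the populations was tested as the difference of effects, M2 minus M1. Of all genes tested 1.11% were called higher and 1.20% lower, 2.31% in all, and of the 29 members 2 were called higher and none lower. Insig1 differed by 0.63 ± 0.12 (adjusted p = 0.0351) and Lss by 0.55 ± 0.12 (adjusted p = 0.0393), both with a higher effect in M2. For the other 27 members the difference was not called. Among these, Cyp51 differed by 0.39 ± 0.17 (adjusted p = 0.196), Mvd by 0.61 ± 0.16 (adjusted p = 0.0609), Stard4 by 0.79 ± 0.19 (adjusted p = 0.0515) and Abca1 by -0.61 ± 0.15 (adjusted p = 0.057). The count depended on the setting. DESeq2 called 9 members and the fit with progenitor counts taken off 6, and leaving out 1 library gave 0 without Cold M1 replicate 2, Warm M1 replicate 1 or 3, Cold M2 replicate 2 or 3, or any 1 of the Warm M2 libraries, and 4, 5 and 9 without Cold M1 replicate 1, Cold M1 replicate 3 and Warm M1 replicate 2.

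In progenitors cold raised Abca1 and Insig1 and lowered Nr1h3. Of the 29 members 5 rose and 4 fell, while 18.4% of all 12910 genes tested rose and 16.6% fell, 34.9% in all. Abca1 had 229, 231 and 270.5 CPM in Cold AP, against 65.5, 70.1 and 114 CPM in Warm AP (log2 fold change 1.46 ± 0.22, adjusted p = 0.00727). Nr1h3 had 66.9, 62.6 and 58.7 CPM in Cold AP, against 89.1, 84.5 and 81.7 CPM in Warm AP (log2 fold change -0.52 ± 0.081, adjusted p = 0.00758), opposite in sign to its change in Cold M1. Lpcat3 had 46.5, 42.4 and 46.6 CPM in Cold AP, against 54.5, 60.95 and 51.6 CPM in Warm AP (log2 fold change -0.38 ± 0.092, adjusted p = 0.0195). The groups did not overlap in any of the 3. Abcg1 was low in progenitors, at 6.64 to 9.47 CPM in Cold AP and 4.16 to 8.15 CPM in Warm AP, and not called. Insig1 had 29.03, 25.4 and 29.99 CPM in Cold AP, against 17.6, 15.7 and 20.1 CPM in Warm AP (log2 fold change 0.58 ± 0.12, adjusted p = 0.0148), while Srebf1, Srebf2 and Scap were not called. Insig1 was thus the 1 sensor called in progenitors. Mylip had 23.97, 15.4 and 18.6 CPM in Cold AP, against 11.2, 9.56 and 9.22 CPM in Warm AP (log2 fold change 0.87 ± 0.16, adjusted p = 0.0106). Stard4 had 3.85, 4.32 and 3.90 CPM in Cold AP, against 2.20, 2.66 and 2.77 CPM in Warm AP (log2 fold change 0.58 ± 0.18, adjusted p = 0.0395), higher where Cold M1 was lower. No overlap was seen for Insig1, Mylip or Stard4.

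The 16 synthesis genes held 1 that rose and 2 that fell in progenitors, with a median of -0.109, against 0.005 over all genes. Lss had 7.36, 6.93 and 7.17 CPM in Cold AP, against 4.20, 4.00 and 4.83 CPM in Warm AP (log2 fold change 0.64 ± 0.14, adjusted p = 0.0156). Pmvk had 7.76, 6.10 and 7.20 CPM in Cold AP, against 13.2, 10.8 and 7.89 CPM in Warm AP (log2 fold change -0.67 ± 0.18, adjusted p = 0.0273). Tm7sf2 had 5.12, 5.45 and 4.89 CPM in Cold AP, against 9.11, 7.37 and 5.75 CPM in Warm AP (log2 fold change -0.59 ± 0.17, adjusted p = 0.0333). In Pmvk and Tm7sf2 the lowest Warm value came from replicate 3, which also had the highest Warm value of Abca1. Only Abca1 and Nr1h3 kept their call in every setting. The count of members called was 2 without Cold AP replicate 3 or Warm AP replicate 2, 4 without Warm AP replicate 1 and 5 without Cold AP replicate 1, in fits that called 489 to 2408 genes in place of 4512. Macrophage markers summed to 74.2, 200 and 79.4 CPM in Cold AP, against 523, 424.8 and 96.3 CPM in Warm AP. Endothelial markers summed to 221 to 256 CPM in Cold AP, against 141.5 to 145.7 CPM in Warm AP, and the progenitor markers themselves to 131976 to 142817 CPM in Cold AP, against 161165 to 167703 CPM in Warm AP. Of the 14 progenitor markers, 6 had every Cold AP library below every Warm AP library and 3 the reverse. Of the 7 endothelial markers, 2 had every Cold AP library above and 0 below. The part of these lists in the result was not tested. Among all genes tested in progenitors 18.4% rose and 16.6% fell. Of 12 fatty acid targets of SREBP 6 rose and none fell, among them Scd2 (1.17), Fads1 (0.62) and Scd1 (0.85). The sterol desaturase Sc5d rose (0.50), and of 3 further genes of SREBP control 1 rose, Mbtps2 (0.59). Of 9 further LXR targets and partners tested 3 rose, among them the partner receptor Rxra (0.86), and 2 fell. Of 7 genes of lysosomal and oxysterol handling 2 rose and 3 fell, and Ch25h, which makes an oxysterol that activates LXR and blocks SREBP processing, had 5.62, 4.67 and 5.00 CPM in Cold AP, against 18.1, 15.5 and 14.7 CPM in Warm AP (log2 fold change -1.74 ± 0.12, adjusted p = 0.00202).

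**Figure D3:**
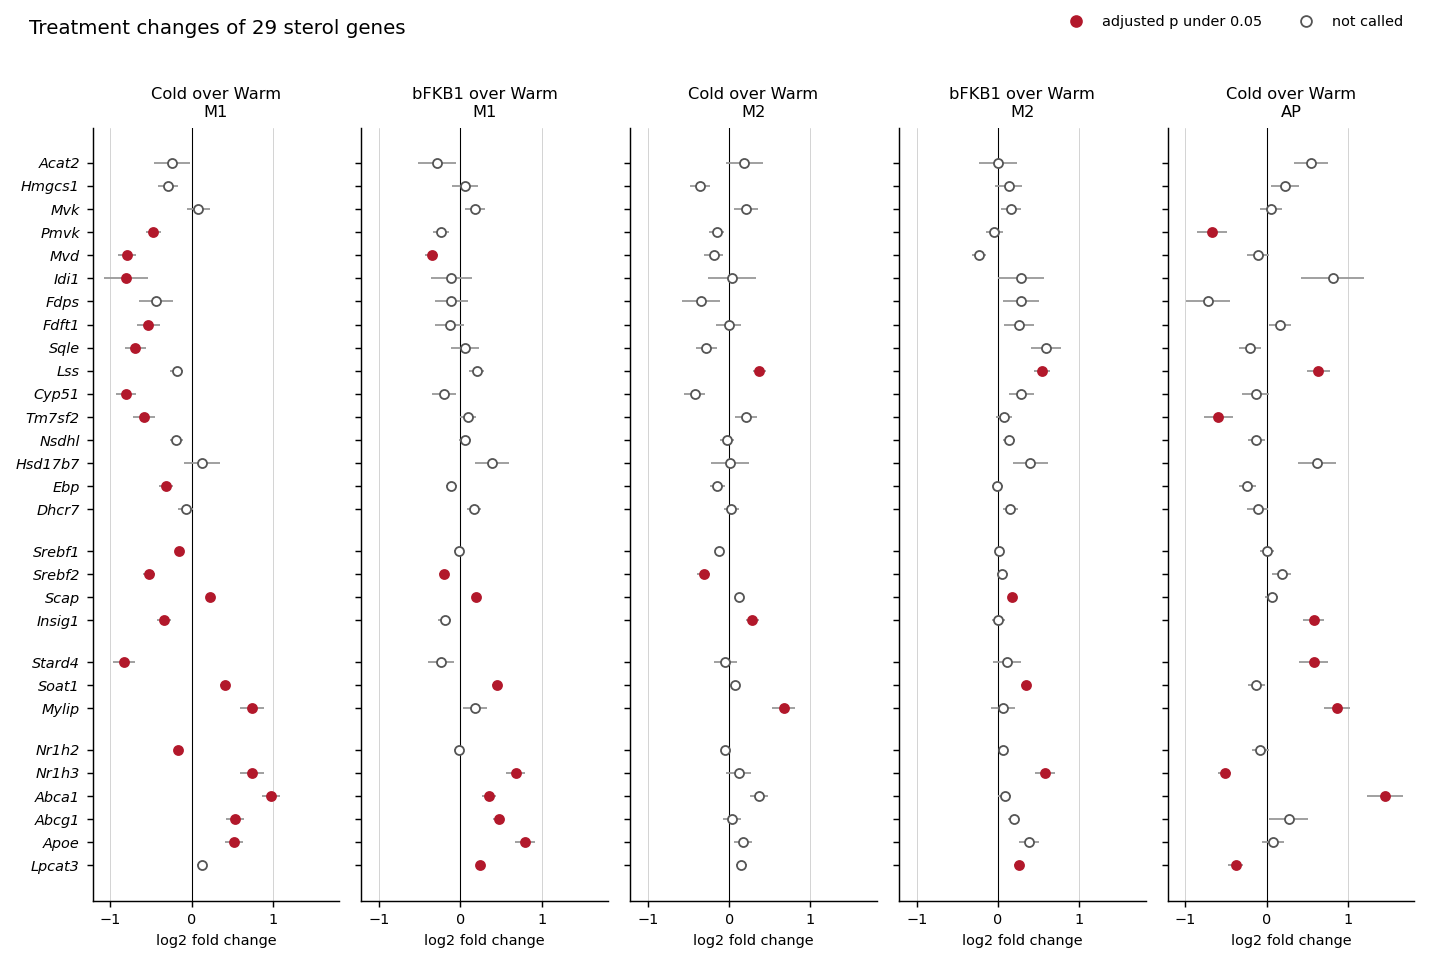
Log2 fold change (x axis, same scale in all panels) of the 29 members, from synthesis at the top to LXR and efflux at the bottom, for Cold or bFKB1 over Warm in each population. Points are estimates with standard errors as bars and filled where the adjusted p was under 0.05; in Cold M1 the filled synthesis genes lie left of 0 and Abca1, at 0.98, right of it.

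The antibody bFKB1 went with more RNA of export genes in M1, with little change in synthesis. Of the 29 members 7 rose and 2 fell, while 12.2% of all 12734 genes tested rose and 9.45% fell, 21.6% in all. LXR and efflux genes rose in 5 of 6 cases and fell in none, with a median log2 fold change of 0.411, against -0.021 over all genes. Apoe had 7373, 6919 and 5466 CPM in bFKB1 M1, against 3263, 4625 and 3573 CPM in Warm M1 (log2 fold change 0.80 ± 0.13, adjusted p = 0.00222). Nr1h3 had 94.2, 95.2 and 72.4 CPM in bFKB1 M1, against 46.2, 67.0 and 51.6 CPM in Warm M1 (log2 fold change 0.68 ± 0.12, adjusted p = 0.00376). Abcg1 had 302, 326 and 287 CPM in bFKB1 M1, against 229, 224 and 210.4 CPM in Warm M1 (log2 fold change 0.47 ± 0.068, adjusted p = 0.00144). None of the 3 overlapped with Warm. Lpcat3 had 96.7, 100.1 and 90.7 CPM in bFKB1 M1, against 80.3, 80.9 and 82.9 CPM in Warm M1 (log2 fold change 0.25 ± 0.052, adjusted p = 0.00801). Abca1 rose by less (0.35, adjusted p = 0.0162), and its call was lost in 5 of 13 alternative settings. Nr1h2 was not called. Macrophage markers summed to 19096 to 19784 CPM in bFKB1 M1, against 16110 to 17041 CPM in Warm M1, while dendritic cell markers were lower (ranges above); their part in the result was not tested.

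The storage enzyme Soat1 had 261, 251 and 235 CPM in bFKB1 M1, against 174, 196 and 182 CPM in Warm M1 (log2 fold change 0.45 ± 0.055, adjusted p = 0.000873), while Stard4 and Mylip were not called. Scap had 96.6, 99.4 and 96.8 CPM in bFKB1 M1, against 84.8, 88.4 and 85.3 CPM in Warm M1 (log2 fold change 0.19 ± 0.038, adjusted p = 0.00662). Srebf2 had 298, 298 and 295 CPM in bFKB1 M1, against 328, 335 and 370.3 CPM in Warm M1 (log2 fold change -0.20 ± 0.064, adjusted p = 0.0416), a call lost in 8 of 13 alternative settings. Libraries of the groups did not overlap in any of these 3 genes. Mvd alone of the 16 synthesis genes fell, with 17.1, 19.5 and 18.5 CPM in bFKB1 M1, against 24.2, 22.9 and 23.9 CPM in Warm M1 (log2 fold change -0.35 ± 0.082, adjusted p = 0.0125), and the median over the 16 was -0.029. Cyp51 had 68.9, 55.2 and 44.05 CPM in bFKB1 M1 and was not called (-0.21 ± 0.15, adjusted p = 0.344), with libraries below and within the Warm range. Cold and bFKB1 share the Warm libraries, so their changes are given side by side without a test of likeness. The log2 fold change of Apoe was 0.52 in Cold and 0.80 in bFKB1, that of Nr1h3 0.74 in Cold and 0.68 in bFKB1, that of Abca1 0.98 in Cold and 0.35 in bFKB1, and that of Cyp51 -0.81 in Cold and -0.21 in bFKB1. Of further genes, Lipa (0.76), Nceh1 (0.63), Lpl, the lipoprotein lipase (0.64), and Pltp, a phospholipid transfer protein and LXR target (0.50), rose. Fasn had 69.1, 68.4 and 66.9 CPM in bFKB1 M1, against 109.8, 109 and 115 CPM in Warm M1 (log2 fold change -0.70 ± 0.068, adjusted p = 0.000509). By list, 4 of 7 genes of lysosomal and oxysterol handling rose and 1 fell, while 12.2% of all genes tested rose and 9.45% fell. Of 10 further LXR targets and partners 3 rose and 1 fell. Of 12 fatty acid targets 2 rose and 3 fell, and 1 of 3 genes of SREBP control rose.

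In M2, 5 of the 29 members were higher in bFKB1 than in Warm and none lower, while 5.25% of all genes tested rose and 3.01% fell, 8.26% in all. Lss had 13.1, 11.3 and 13.3 CPM in bFKB1 M2, against 8.95, 8.08 and 8.61 CPM in Warm M2 (log2 fold change 0.54 ± 0.093, adjusted p = 0.00743). Soat1 had 176, 151 and 166 CPM in bFKB1 M2, against 129.7, 132 and 123 CPM in Warm M2 (log2 fold change 0.34 ± 0.056, adjusted p = 0.00535). Nr1h3 had 43.98, 46.8 and 43.8 CPM in bFKB1 M2, against 28.4, 32.1 and 28.5 CPM in Warm M2 (log2 fold change 0.58 ± 0.13, adjusted p = 0.0204). All 3 lay above every Warm library. Lpcat3 had 78.4, 68.7 and 73.8 CPM in bFKB1 M2, against 59.5, 63.2 and 60.7 CPM in Warm M2 (log2 fold change 0.26 ± 0.053, adjusted p = 0.0175). Scap had 74.9, 74.2 and 73.1 CPM in bFKB1 M2, against 63.6, 65.9 and 65.6 CPM in Warm M2 (log2 fold change 0.17 ± 0.039, adjusted p = 0.0222). Both stood apart from Warm as well. Apoe had 15257, 15875 and 14815 CPM in bFKB1 M2, against 11926, 11014 and 11939 CPM in Warm M2, without overlap but short of the threshold (0.38 ± 0.13, adjusted p = 0.0871). Only Lss and Soat1 kept their call in every setting, and the call of Nr1h3 was lost whichever 1 of the 6 libraries was left out. The count of members called was 2 without bFKB1 M2 replicate 1 or Warm M2 replicate 1, and 3 without bFKB1 M2 replicate 3 or Warm M2 replicate 2. Mast cell markers summed to 5.12 to 19.0 CPM in bFKB1 M2, against 1.76 to 2.18 CPM in Warm M2, and endothelial markers were higher as well (ranges above). Mature adipocyte markers summed to 258 to 275 CPM in bFKB1 M2, against 184 to 219.7 CPM in Warm M2. Most single markers of that list did not follow the sum. Every bFKB1 M2 library lay below every Warm M2 library in 4 of the 7, and above in 1. Macrophage markers summed to 27415 to 28036 CPM in bFKB1 M2, against 24527 to 26074 CPM in Warm M2. Progenitor markers were lower, at 1939 to 2596 CPM in bFKB1 M2, against 3218 to 5047 CPM in Warm M2, and the part of these lists in the result was not tested. Of 12 fatty acid targets 1 fell, Fasn (-0.44). Of 7 genes of lysosomal and oxysterol handling 2 rose, Lipa (0.85) and Nceh1 (0.68), and of 10 further LXR targets and partners Lpl (0.79) and Smpdl3a (0.35) rose and 1 fell. The sterol enzyme Msmo1 rose (0.44), as did Mbtps2 (0.28).

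The difference of the bFKB1 effects, M2 minus M1, was called for 0% of genes, none of the 12734 in edgeR, in which 976 had an unadjusted p under 0.05, and for 76 in DESeq2. None of the 29 members was called by either tool, and 6 had an unadjusted p under 0.05 in edgeR. Abcg1 differed by -0.28 ± 0.096 (adjusted p = 0.549) and Apoe by -0.41 ± 0.18 (adjusted p = 0.625), both with the smaller effect in M2, and Srebf2 by 0.26 ± 0.090 (adjusted p = 0.549).

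M1 macrophages held more RNA of sterol synthesis than M2 in Warm mice, and the export genes were split. Of the 29 members 18 were higher in M1 and 3 lower, while 22.5% of all genes tested were higher and 22.8% lower, 45.2% in all. Synthesis genes were higher in 10 of 16 cases and lower in none, with a median log2 fold change of 0.439, against 0.041 over all genes. Cyp51 had 57.6, 63.1 and 74.1 CPM in Warm M1, against 27.3, 30.8 and 26.7 CPM in Warm M2 (log2 fold change 1.11 ± 0.12, adjusted p = 2.98e-05). Sqle had 31.1, 38.2 and 37.2 CPM in Warm M1, against 16.1, 21.1 and 16.8 CPM in Warm M2 (log2 fold change 0.89 ± 0.13, adjusted p = 0.000213). These are the Warm M1 libraries that Cold M1 was also set against. Fdft1, the squalene synthase whose exons overlap Ctsb, had 7.79, 8.56 and 9.20 CPM in Warm M1, against 3.52, 4.25 and 4.53 CPM in Warm M2 (log2 fold change 0.97 ± 0.15, adjusted p = 0.000316). Lss had 12.3, 14.1 and 13.1 CPM in Warm M1, against 8.95, 8.08 and 8.61 CPM in Warm M2 (log2 fold change 0.53 ± 0.081, adjusted p = 0.000306). In all 4 the lowest M1 library stood above the highest M2 library. The other 6 enzymes higher in M1 were Idi1 (0.93), Fdps, which has near-identical copies (0.91), Hmgcs1 (0.74), Mvd (0.70), Dhcr7 (0.35) and Nsdhl (0.33). Replicate numbers were taken to pair the Warm M1 and M2 libraries. With the number as a block Idi1 was not called (0.91, adjusted p = 0.0549) while the other 20 calls stood.

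Both SREBP genes were higher in Warm M1 than in Warm M2. Srebf2, with its 3 libraries in each group given above, differed by 0.62 ± 0.075, adjusted p = 5.35e-05, Srebf1 by 0.42 ± 0.049, adjusted p = 4.44e-05 and Scap by 0.32 ± 0.051, adjusted p = 0.000424, while Insig1 was not called (0.027 ± 0.082, adjusted p = 0.81). Of the export genes, Abcg1 had 229, 224 and 210.4 CPM in Warm M1, against 113, 114 and 97.2 CPM in Warm M2 (log2 fold change 0.94 ± 0.11, adjusted p = 3.85e-05). Abca1 had 267, 267 and 259.8 CPM in Warm M1, against 746, 761 and 844 CPM in Warm M2 (log2 fold change -1.66 ± 0.11, adjusted p = 8.50e-07). Apoe had 3263, 4625 and 3573 CPM in Warm M1, against 11926, 11014 and 11939 CPM in Warm M2 (log2 fold change -1.70 ± 0.12, adjusted p = 8.02e-07). The pair of transporters lay in opposite directions, each without overlap. Nr1h3 was higher in M1 (0.79 ± 0.15, adjusted p = 0.00128) and Nr1h2 was not called (0.032 ± 0.044, adjusted p = 0.581). Mylip, like Abca1 and Apoe, was lower in M1 (-1.39 ± 0.15, adjusted p = 2.12e-05), while Soat1 (0.43 ± 0.061, adjusted p = 0.000172), Stard4 (0.56 ± 0.13, adjusted p = 0.00561) and Lpcat3 (0.33 ± 0.064, adjusted p = 0.00168) were higher. Around the members, 7 of 12 fatty acid targets were higher and 3 lower, while 22.5% of all genes tested were higher and 22.8% lower. Of 10 further LXR targets and partners 4 were higher and 2 lower. Of 7 genes of lysosomal and oxysterol handling 3 were higher and 2 lower, Ch25h (-2.82) and Cyp27a1 (-1.01), which make oxysterols. None of 3 further genes of SREBP control was called.

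In Cold mice 18 members differed between the populations. Of the 29 members 13 were higher and 5 lower in Cold M1 than in Cold M2, while 27.8% of all genes tested were higher and 26.9% lower, 54.7% in all. Of the 16 synthesis genes 6 were higher and 1 lower, with a median of 0.129, against -0.002 over all genes. Hmgcs1 had 71.4, 66.3 and 65.3 CPM in Cold M1, against 43.9, 35.3 and 33.4 CPM in Cold M2 (log2 fold change 0.81 ± 0.12, adjusted p = 0.000258). Tm7sf2 had 4.64, 3.73 and 4.91 CPM in Cold M1, against 5.68, 6.68 and 6.94 CPM in Cold M2 (log2 fold change -0.57 ± 0.14, adjusted p = 0.00516), the 1 synthesis gene lower in M1. Cyp51 differed by 0.73 and Sqle by 0.48. Insig1 was lower in Cold M1 (-0.60 ± 0.082, adjusted p = 0.000114), as were Abca1 (-1.04), Apoe (-1.35) and Mylip (-1.32). Nr1h3 (1.42), Abcg1 (1.44) and Soat1 (0.76) were higher. The progenitor share of the Cold M1 libraries, 12.7% to 35.8%, stands beside these values against 1.75% to 2.47% in Cold M2. With progenitor counts taken off the count stayed at 18, while Fdft1 was no longer called (0.33, adjusted p = 0.094), and the values of Dhcr7 (0.25) and Lpcat3 (0.30) came to 0.43 and 0.49.

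In bFKB1 mice 13 members were higher and 3 lower in M1 than in M2, while 23.0% of all genes tested were higher and 24.6% lower, 47.6% in all. Of the 16 synthesis genes 6 were higher and none lower, with a median of 0.314, against 0.009 over all genes. Mvd had 17.1, 19.5 and 18.5 CPM in bFKB1 M1, against 13.1, 10.7 and 11.5 CPM in bFKB1 M2 (log2 fold change 0.58 ± 0.085, adjusted p = 0.000202). Dhcr7, the last reductase of the pathway, had 38.4, 38.3 and 38.5 CPM in bFKB1 M1, against 29.7, 25.1 and 31.2 CPM in bFKB1 M2 (log2 fold change 0.36 ± 0.089, adjusted p = 0.00652). The groups of both stood apart. Abcg1 (1.22), Nr1h3 (0.89) and Soat1 (0.53) were higher and Abca1 (-1.39), Apoe (-1.29) and Mylip (-1.28) lower, and these 6 were called in the same directions in Cold and in Warm, comparisons that use different libraries for each condition.

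**Figure D4:**
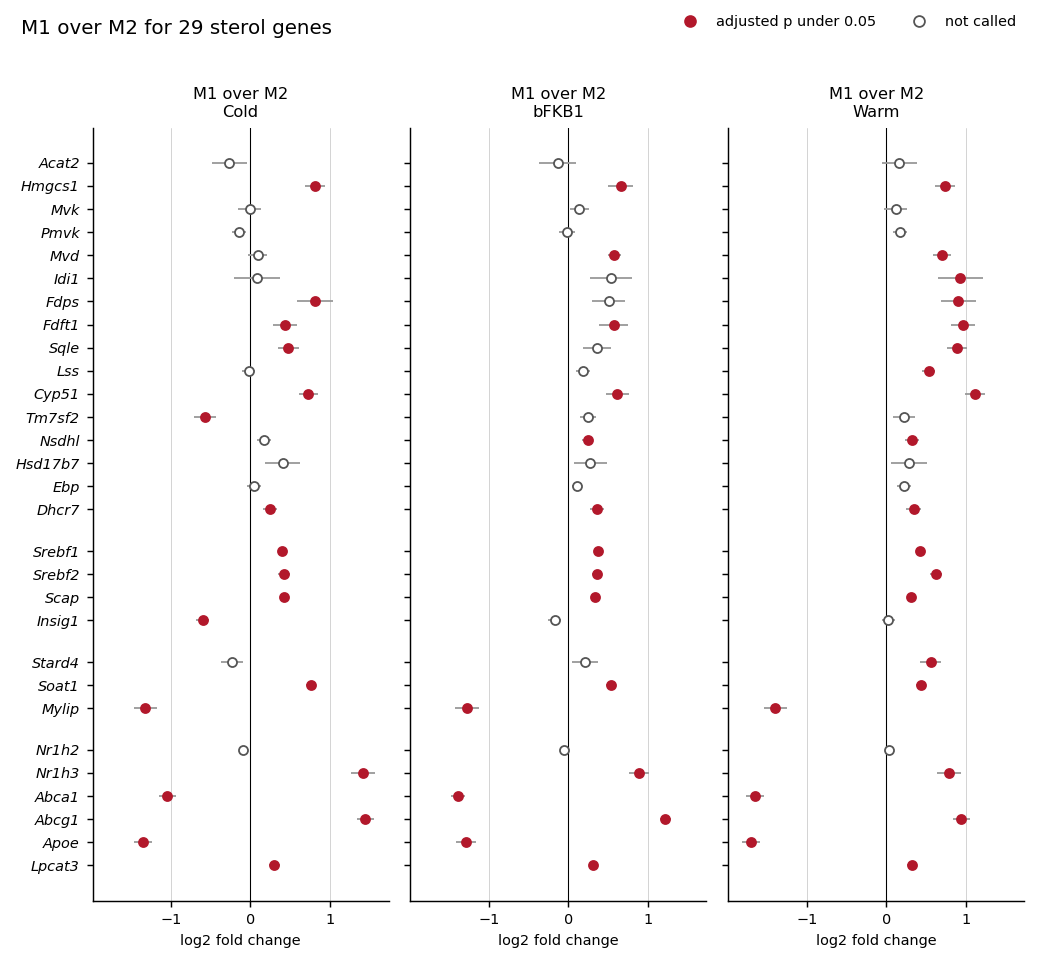
Log2 fold change M1 over M2 (x axis, same scale in all panels) of the 29 members in Cold, bFKB1 and Warm mice, with standard errors as bars and filled points where the adjusted p was under 0.05. In each panel Abca1, Apoe and Mylip lie left of 0 and Abcg1 and Nr1h3 right of it; in Warm all 16 synthesis genes lie right of 0, with 10 filled.

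Progenitors differed from macrophages in most members. Against Warm M1, 6 members were higher and 15 lower in Warm AP, while 42.7% of all 13687 genes tested were higher and 39.3% lower, 81.9% in all. Abcg1 had 8.15, 7.03 and 4.16 CPM in Warm AP, against 229, 224 and 210.4 CPM in Warm M1 (log2 fold change -4.75 ± 0.20, adjusted p = 2.03e-11). Soat1 had 39.5, 42.1 and 44.7 CPM in Warm AP, against 174, 196 and 182 CPM in Warm M1 (log2 fold change -1.77 ± 0.077, adjusted p = 2.37e-11). Stard4 (-1.81), Insig1 (-1.21), Abca1 (-1.30) and Apoe (-1.21) were lower too, while Nr1h3 (1.00) and Scap (0.57) were higher. Of the 16 synthesis genes 3 were higher, Mvk (0.75), Hsd17b7 (0.58) and Tm7sf2 (0.52), and 6 lower, the largest Idi1 (-1.80), Mvd (-1.30) and Lss (-1.23). Against Warm M2, 10 members were higher and 11 lower in Warm AP, while 42.1% of all genes tested were higher and 39.5% lower, 81.6% in all. There 7 synthesis genes were higher and 4 lower, with Fdft1 at 0.99, Nr1h3 at 1.78, Abca1 at -2.97, Abcg1 at -3.81 and Apoe at -2.92. The members called in each, 21 of 29, made up a smaller share than among all genes tested, and the values give the size for each gene.

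Set against each other in each library, synthesis and export genes give 1 value for each. The mean of log2(CPM + 1) was taken over the 16 synthesis genes and over 5 export and LXR target genes, Abca1, Abcg1, Apoe, Mylip and Lpcat3, as a description with no test. In Cold M1 synthesis minus export came to -4.60, -4.63 and -4.65, in bFKB1 M1 to -4.09, -4.22 and -4.10, and in Warm M1 to -3.75, -3.81 and -3.58. The 3 groups of M1 libraries did not overlap, with Cold lowest. In Cold M2 it came to -5.14, -5.21 and -5.26, in bFKB1 M2 to -4.81, -5.05 and -4.83, and in Warm M2 to -4.91, -4.77 and -4.91. Cold M2 lay below the other M2 libraries, while bFKB1 M2 and Warm M2 overlapped. The export mean alone was 8.60 to 8.67 in Cold M2 and 8.45 to 8.53 in bFKB1 M2, against 8.25 to 8.32 in Warm M2, with no overlap, and the synthesis mean was 3.37 to 3.53 in Cold M2 and 3.47 to 3.71 in bFKB1 M2, against 3.39 to 3.49 in Warm M2. In Cold AP it came to -3.02, -2.63 and -2.80, against -2.36, -2.30 and -2.33 in Warm AP. The synthesis mean itself was 3.62 to 3.72 in Cold M1 and 3.82 to 4.08 in bFKB1 M1, against 3.86 to 4.05 in Warm M1, and the export mean was 8.22 to 8.37 in Cold M1 and 7.92 to 8.18 in bFKB1 M1, against 7.61 to 7.83 in Warm M1. In progenitors the synthesis means overlapped, at 3.40 to 3.56 in Cold AP and 3.34 to 3.49 in Warm AP. The export means did not, at 6.18 to 6.42 in Cold AP and 5.67 to 5.85 in Warm AP. Of the 5 genes in that mean, Abca1 and Mylip were called higher in Cold AP and Lpcat3 lower, while Abcg1 and Apoe were not called. In Cold M2 Mylip alone of the 5 was called, and in bFKB1 M2 Lpcat3 alone. The export mean in these groups thus does not show a shared rise of the 5.

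**Figure D5:**
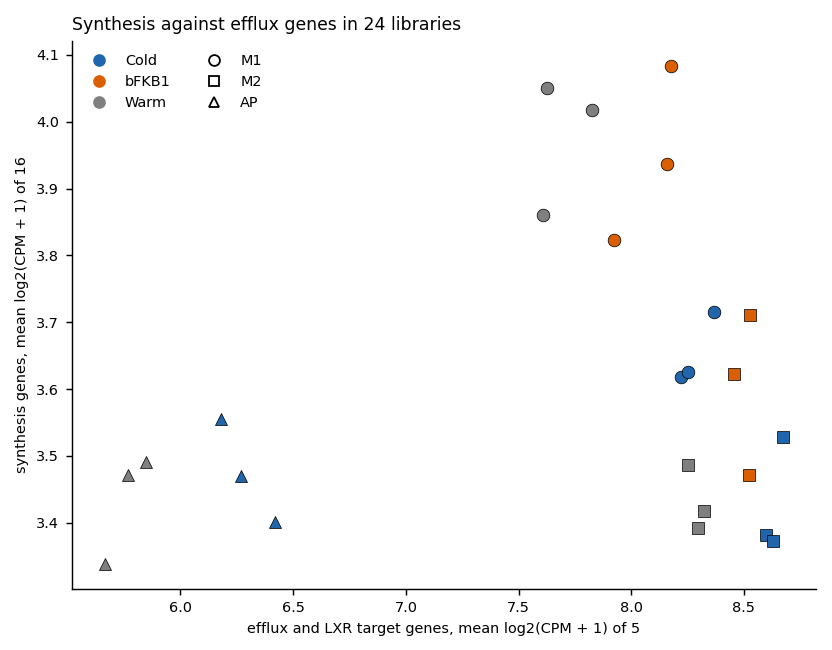
Mean log2(CPM + 1) of 16 synthesis genes (y axis) against that of 5 export and LXR target genes (x axis), 1 point per library, coloured by condition and shaped by population. Cold M1 circles lie at 3.62 to 3.72 on the y axis, lower and further right than Warm M1 circles at 3.86 to 4.05; progenitors lie at the left.

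Over the 5 treatment comparisons 22 of the 29 members were called at least once and 7 in none, all 7 of them synthesis genes: Acat2, Hmgcs1, Mvk, Fdps, Nsdhl, Hsd17b7 and Dhcr7. Nr1h3 was called in 4 of the 5, higher in Cold M1 and in bFKB1 M1 and M2 and lower in Cold AP. A total of 4 members were called in both directions, Insig1, Stard4, Nr1h3 and Lpcat3, and Srebf2 was lower in each of the 3 comparisons that called it. The share of all genes called at least once, or in both directions, was not computed. These counts therefore do not set the members apart from other genes.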

How the data were processed

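Poly-A RNA libraries of sorted cells were compared across the 8 groups. Values deposited by the authors are raw counts per gene in 2 tables, made with GSNAP, CASAVA 1.8 and build GRCm38 for both and SAMtools for the Warm and Cold table, per the submitters' processing notes; which program counted the reads, and on which annotation, is not given in the sources used here. Rows with a date in place of a symbol, 27 with 0.148% to 0.192% of a library's counts, were left out. Columns were matched to samples through their labels; for bFKB1 the replicate numbers of titles are used, which differ from those in other labels.

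From the counts, CPM was computed as counts over the library total. Tests were run in R 4.3.3 with edgeR 4.0.16 (filterByExpr, TMM, 1 mean per group, quasi-likelihood test, Benjamini-Hochberg over all genes tested, threshold 0.05), in fits of 12 Warm and Cold macrophage libraries, 12 Warm and bFKB1 macrophage libraries, 6 progenitor libraries, and 18 libraries for progenitors against macrophages. All reported values come from the deposited counts; the fitting code was also tested on simulated data with known changes, whose values are not given. Nothing says that the 3 libraries of a group are separate experiments beyond their pools of mice, so p-values measure the spread between these libraries. Alternatives were RLE scaling, DESeq2 1.42.0, no filter, all 24 libraries in 1 fit, only the groups compared, each library left out, the replicate number as a block, and progenitor counts taken off. For that last one the progenitor share of a library was the summed CPM of 14 markers over that in the AP libraries of the same condition (Warm AP for bFKB1), and the share times the AP mean of each gene was taken off. Same-numbered Warm M1 and M2 libraries deviated together from their group means (r = 0.13, 0.23 and 0.13), so the numbers were taken to pair those groups. This pairing comes from the data and the numbers of the labels and was not tested. Gene positions and exon lengths are from GENCODE M21. Members, gene lists, markers and the rule for naming genes were chosen with earlier results of these data known. By that rule each called member is named or counted, per-library values go to at most 4 called members of a role and comparison with the smallest p, preferring those whose log2 fold change was 0.5 or more in size, and to the regulators, and each pathway list names at most 3 called genes. Counts for a list of further sterol enzymes are not reported here.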

Additional observations from a re-analysis of the deposited data

Results flagged for a closer look

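The effect of cold differed between the macrophage populations for 2 members by the test of the difference itself, edgeR's quasi-likelihood test of M2 minus M1. For Insig1 the log2 fold change Cold over Warm was 0.29 ± 0.082 in M2 and -0.34 ± 0.082 in M1 (SE), a difference of 0.626 with an adjusted p of 0.0351; all 3 Cold M2 libraries lay above all Warm M2 libraries and all 3 Cold M1 libraries below all Warm M1 libraries. The difference was lost in 9 of 18 alternative settings, all of them with 1 library left out, and with progenitor counts taken off it was 0.502 (adjusted p = 0.0363).

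For Lss the log2 fold change Cold over Warm was 0.37 ± 0.082 in M2 and -0.18 ± 0.080 in M1, where it was not called, a difference of 0.551 with an adjusted p of 0.0393. The difference was lost in 11 of 18 alternative settings, among them the replicate block (0.55, adjusted p = 0.0799) and progenitor counts taken off (0.42, adjusted p = 0.0702). In progenitors cold raised both genes, Insig1 by 0.58 and Lss by 0.64.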

How the results depend on the processing

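Of the 146 member calls over the 12 comparisons, none changed sign in any alternative and 110 kept their call in every one. Of the 20 calls of Cold M1, 14 did. Counts of members called stayed within 1.5 times of the count given for 8 of the 12 comparisons in every alternative. For Cold M2 the count was 4, 6 in DESeq2 and with only the groups compared, and 0 to 4 with 1 library left out. For Cold AP it was 9, 14 with all 24 libraries in 1 fit, and 2 to 13 with 1 library left out. For bFKB1 M2 it was 5, 7 in DESeq2 and with only the groups compared, and 2 to 4 with 1 library left out. For the difference of cold effects it was 2, and came to 9 in DESeq2, 7 with all 24 libraries in 1 fit, 1 with the replicate block, 6 with progenitor counts taken off, and 0 to 9 with 1 library left out. The cause of these moves was not tested. In fits of only the groups compared, which hold fewer samples, the number of all genes called moved by over 1.5 times, for a cause not tested. It fell to 3796 from 5705 for Cold M1 and to 1604 from 2755 for bFKB1 M1. It rose to 2538 from 1312 for Cold M2 and to 1854 from 1052 for bFKB1 M2. For bFKB1 M2 it was 521 with all 24 libraries in 1 fit, and for the difference of cold effects it was 300, against 1482 in DESeq2, 895 with all 24 libraries and 759 with progenitor counts taken off. Pairing by number was not tested. Same-number correlations were -0.28, -0.01 and -0.06 for Cold M1 and M2, and 0.31, 0.06 and 0.26 for bFKB1 M1 and M2. The bFKB1 values are not all below those of Warm M1 and M2, so they do not settle whether the bFKB1 libraries are paired. With the block, edgeR also lost the calls of Idi1 in Cold M1 (adjusted p = 0.0519) and Insig1 in Cold M2 (adjusted p = 0.0658). The call of Srebf1 in AP against M1 (adjusted p = 0.0568) was lost as well, and of 146 calls 141 stood. Depth limits the members of a few CPM, such as Idi1 and Acat2, and the 3 libraries of each group limit them all.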
